A study of Homo sapiens with 32 samples.

Results

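The start sites described here lie in the replication-dependent histone gene cluster on the short arm of human chromosome 6. They are all rows, on either strand, whose position in hg19 falls between 26017000 and 26290000 or between 27090000 and 27865000. That rule took 47 of 19534 tag clusters in one deposited table and 46 of 13294 single positions in the other. All libraries come from prostate cancer cell lines and count CAGE tags, which are short reads from the capped 5′ end of RNA, so each value is a level of transcript starts. The first table follows LNCaP, an androgen-responsive line, at 0, 3, 6, 12, 18, 48 and 72 h of R1881, a synthetic androgen, each time with 2 libraries. R1881 is given as 1 nM in the characteristics of the time course, while the shared protocol gives another dose, so the dose is uncertain. No vehicle library after 0 h was analysed here. R1881 and time in culture therefore cannot be told apart. The second table holds LNCaP and a line called BicR, an abbreviation left unexplained in the labels. Both lines have an untreated library of 0 h, and for 6 h and for 24 h a library of each of 4 treatments. These are ethanol as vehicle, dihydrotestosterone (DHT) at 10 nM, which is the potent androgen made from testosterone, bicalutamide at 1 µM, which blocks the androgen receptor, and both agents together. All cells were first kept in medium with charcoal-treated serum, which is poor in steroids. The labels do not say whether replicates came from separate cultures, so p-values measure the spread between libraries, which may be technical.

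Histones H2A, H2B, H3 and H4 form the core around which DNA is wound, and the linker histone H1 binds where DNA enters and leaves that core. The replication-dependent genes lie in clusters, lack introns and are transcribed mainly in S phase, when new DNA must be packaged. Their messages usually end in a stem-loop in place of a poly(A) tail, and they are degraded when DNA synthesis stops. H2A and H2B genes often stand head to head and share the DNA between their starts. Levels of histone messages therefore follow the share of cells in S phase as well as transcription. In these bulk samples fewer such cells and less RNA per cell cannot be told apart.

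Promoters of the cluster are shown to make its shared sequence features visible. The tables give no gene names, and the RefSeq tables are on GRCh38.p14 rather than hg19, so no site below is paired with a gene. RefSeq lists 53 protein-coding histone genes in the stretches that correspond to the 2 blocks, 32 in the first and 21 in the second. The same stretches hold 6 other protein-coding genes, 1 in the first and 5 in the second, so not every site need belong to a histone gene. The sequences give the 150 bases before the RefSeq start of 1 gene of each class, the first in gene order that held TATAAA together with CCAAT (H1, H3), with CCAAT and ATTTGCAT (H2A, H2B) or with GGTCC (H4). Capitals mark these motifs, TATAAA and GGTCC on the gene strand and CCAAT and ATTTGCAT on either strand (so also ATTGG and ATGCAAAT). No motif contains another.
H1-1: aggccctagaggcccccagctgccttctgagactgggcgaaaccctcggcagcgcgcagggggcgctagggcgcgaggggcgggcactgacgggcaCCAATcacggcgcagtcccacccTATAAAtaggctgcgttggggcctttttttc
H2AC4: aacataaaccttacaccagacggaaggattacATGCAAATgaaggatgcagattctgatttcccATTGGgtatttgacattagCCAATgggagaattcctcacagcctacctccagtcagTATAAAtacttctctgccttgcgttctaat
H2BC3: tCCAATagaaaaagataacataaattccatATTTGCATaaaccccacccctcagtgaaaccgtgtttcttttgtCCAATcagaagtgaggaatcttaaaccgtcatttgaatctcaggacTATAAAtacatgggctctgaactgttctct
H3C1: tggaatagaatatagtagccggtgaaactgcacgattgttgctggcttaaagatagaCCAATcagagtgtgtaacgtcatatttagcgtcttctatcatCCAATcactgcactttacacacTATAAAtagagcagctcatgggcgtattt
H4C2: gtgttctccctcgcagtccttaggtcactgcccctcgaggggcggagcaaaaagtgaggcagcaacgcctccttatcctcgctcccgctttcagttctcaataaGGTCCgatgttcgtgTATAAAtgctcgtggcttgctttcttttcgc
On GRCh38.p14 these are chr6:26017788-26017937 (minus strand) for H1-1, a linker histone gene, and chr6:26033619-26033768 (minus strand) for H2AC4. H2BC3 is chr6:26043714-26043863 (minus strand), H3C1 is chr6:26020301-26020450 (plus strand) and H4C2 is chr6:26027284-26027433 (minus strand). TATAAA begins at -31 in H1-1 and H4C2, at -30 in H2AC4 and H2BC3 and at -29 in H3C1, counted back from the start. In this window TATAAA was present in 25 of the 48 histone genes with a promoter in the table (52.1%), against 4.54% of all 35116 RefSeq promoters. CCAAT was present in 41 of 48 (85.4%, against 23.5% of all), in every H1, H2A, H2B and H3 promoter and in 3 of 10 H4 promoters. ATTTGCAT, the octamer sequence known from H2B promoters, was present in 11 of 14 H2B and 4 of 10 H2A promoters and in none of the H1, H3 and H4 promoters (0.988% of all). GGTCC was present in 9 of 10 H4 promoters and in 3 others (12 of 48, against 15.2% of all). A match describes letters in the window and does not show that a factor binds there.

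The cluster sites were strong. In the R1881 libraries 19 of 47 sites (40.4%) had a mean of at least 100 RPM (the deposited unit, tags scaled to a fixed library total), against 7.43% of all clusters, and the median cluster spanned 152 bp against 139 bp for all. In the table of the 2 lines 26 of 46 (56.5%) reached 100 RPM, against 11.5% of all positions. Sites on opposite strands often stood back to back. There were 10 such pairs in the first table and 9 in the second. Those of the first table had 194 to 321 bp (median 245 bp) between a minus-strand and the next plus-strand site. They held 19 sites, because minus-strand sites 26124078 and 26124153 were both paired with 26124399 on the plus strand. Pairs within 500 bp took in 40.4% and 39.1% of the cluster sites, against 20.3% and 19.8% of all sites. The highest site in both tables was the minus-strand cluster chr6:26056456-26056762, named 26056697 after its position in the table, with a mean of 1225 RPM in the R1881 table and 1670.1 RPM in the other. The plus-strand cluster chr6:26156514-26157309 (26156557) followed with 777 and 1378 RPM. Next in the R1881 table were 26104161 on the plus strand (440.5 RPM) and 27860962 on the minus strand (327 RPM). In the other table they were 26032326 on the minus strand (991 RPM) and 26204837 on the plus strand (880.3 RPM). The 10 highest sites held 57.3 to 76.3% of the summed cluster level per library in the first table and 62.9 to 68.3% in the second. Histone genes of a class can be similar in sequence, and the aligner is not given. Tags could have been split or misassigned between them, which was not tested. Levels of single sites are uncertain to that extent.

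Library depth limits the single sites. The R1881 libraries of replicate 1 held 128463 to 1075743 tags and those of replicate 2 held 1357958 to 3837493, so 3 tags are worth 0.691 to 19.4 RPM. The 18 libraries of the lines held 4139807 to 7753336 tags. Of the 47 sites, 46 passed the filter on low counts in the R1881 table, and the minus-strand site at 27805710 (mean 1.09 RPM) did not. All 46 positions of the other table were tested. Summed levels over a kallikrein interval of chromosome 19, whose best-known gene KLK3 is induced by androgen, were 3061 and 1811 RPM at 0 h and 14797 and 7618 RPM at 72 h of R1881. The 6 h and 18 h libraries of replicate 2 stood apart in it, with 1887 RPM at 6 h and 3001 RPM at 18 h, against 3727, 6125 and 6415 RPM at 3, 12 and 48 h. Counts of called sites at 72 h are given with and without these. In the table of the lines, the 6 h library of BicR with both agents stood apart, as described with the 6 sites it concerns.

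The summed level of the cluster was lower at 72 h of R1881 than at 0 h in both replicates, from very different starts. In replicate 1 the 47 sites summed to 5237 RPM at 0 h, then 3611, 3010, 2421 and 1685 RPM at 3, 6, 12 and 18 h, and 4289 and 3208 RPM at 48 h and 72 h. In replicate 2 the sums were 12945, 11462, 10876, 9591, 7772, 3893 and 2681 RPM at the same times. In these sums replicate 2 was above replicate 1 up to 18 h and below it at 48 h and 72 h. At 72 h the sums were 61.2% and 20.7% of those at 0 h. At 0 h the 37 sites with a mean of at least 10 RPM had a median log2 ratio of replicate 2 over replicate 1 of 1.61, against 0.10 for all 9911 clusters at that level. At 72 h the medians were 0.08 and -0.06. Without the highest site, 26056697, the sums at 0 h were 3756 and 11645 RPM and at 72 h were 1858 and 1767 RPM. At 48 h they were then 1839 and 2570 RPM, so the reversal at 48 h rested on that site. Of the 37 sites, 32 were higher in replicate 2 at 48 h.

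**Figure D1:**
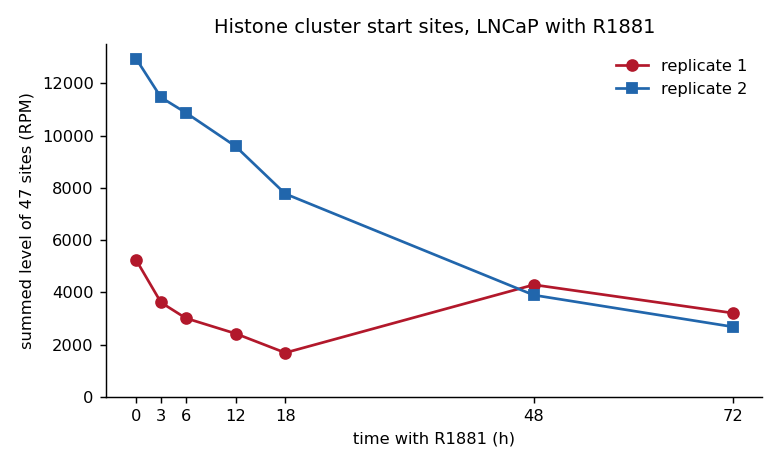
Summed level of the 47 cluster sites (RPM, linear axis from 0) against time with R1881 in LNCaP, with 1 point per library and 1 line per replicate. Replicate 2 starts at 12945 RPM and ends at 2681 RPM, and replicate 1 starts at 5237 RPM and ends at 3208 RPM.

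Fitted without a term for the replicate number, single sites passed edgeR's test at 72 h alone. All comparisons with 0 h share the same 2 libraries of 0 h. With edgeR's quasi-likelihood test and an adjusted p under 0.05, 0 of 46 sites were called at 3, 6, 12, 18 and 48 h, where 0%, 0%, 0.231%, 0.988% and 1.89% of all 15999 tested clusters were called in either direction. At an unadjusted p under 0.05 the counts were 0, 4, 1, 8 and 19 of 46, against 269, 2449, 996, 3268 and 1967 of all 15999 clusters. DESeq2 called 0, 0, 0, 1 and 2 lower at an adjusted p under 0.05. Of all clusters it called 0%, 0.0875%, 0.0125%, 0.894% and 0.694% lower. At 72 h 3 sites had fallen and 0 had risen, against 0.988% of all clusters lower and 1.51% higher. The median log2 fold change over the 46 sites was -0.16, -0.46, -0.46, -0.85, -1.58 and -2.0 at the 6 times, while that of all clusters lay between -0.11 and 0.01. Both libraries lay below both of 0 h for 30 of 46 sites at 48 h (25.9% of all clusters) and for 30 of 46 at 72 h (26.7% of all). The 3 calls were lost without either library of 72 h or without replicate 2 of 0 h (0 called each). Leaving out the 6 h and 18 h libraries of replicate 2 gave 8 of 45 tested sites, all lower (2.26% of all clusters).

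Libraries of the same replicate number deviated alike, and with the replicate as a block more sites were called after 6, 18, 48 and 72 h. The number also separates shallow from deep libraries, and whether it pairs cultures was not tested. The block gave 0 calls at 3 h and 12 h, where 0.288% and 1.98% of all clusters were called. After 6 h it called 4 sites lower (3.78% of all clusters), after 18 h 11 (6.63%), after 48 h 21 (3.58%) and after 72 h 27 (5.89%), with 0 sites higher at any of them (2.84%, 6.39%, 4.96% and 6.28% of all clusters). The median at 72 h was then -1.87. The counts after 6 h and 18 h include the replicate 2 libraries that stood apart. With the block and without both of these, a choice made after seeing the data, 0 and 2 of 45 tested sites were called lower after 6 h and 18 h, each from 1 library (0% and 0.357% of all clusters). The counts were then 1 after 12 h, 29 after 48 h and 29 after 72 h (0.915%, 5.85% and 9.27%). Of the 46 sites 32 were lower at 72 h than at 0 h in both replicate numbers (36.6% of all clusters) and 5 were higher in both (32.8%).

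**Figure D2:**
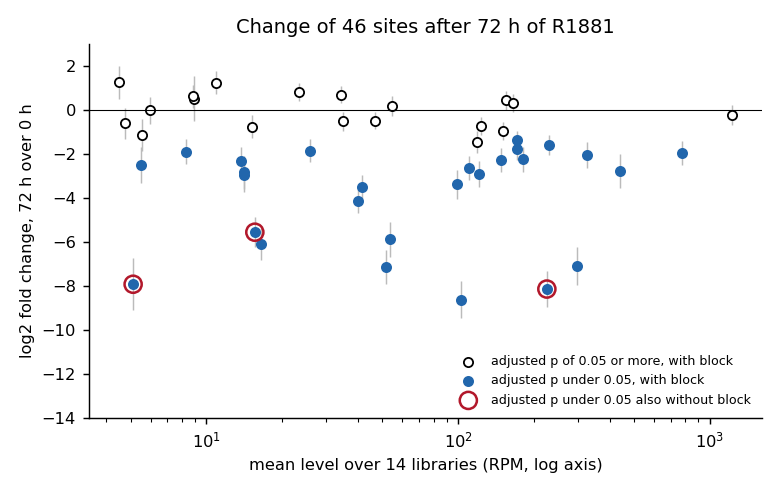
Log2 fold change at 72 h over 0 h of R1881, fitted with the replicate as a block, for the 46 tested sites against their mean level (RPM, log axis). Bars are 1 SE, filled points are the 27 sites with an adjusted p under 0.05 and ringed points are the 3 also called without the block.

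The plus-strand site at 27114884 (chr6:27114821-27114918) was one of the 3 called at 72 h. In replicate 1 it had 182, 64.6, 34.2, 21.3, 0, 9.17 and 2.03 RPM at 0, 3, 6, 12, 18, 48 and 72 h. In replicate 2 it had 1155, 931, 88.7, 585, 45.3, 33.9 and 3.45 RPM. Both 72 h libraries lay below every earlier one except the 18 h library of replicate 1, and its 6 h and 18 h values in replicate 2, the libraries that stood apart, lay far under those of 3 h and 12 h. Its log2 fold change at 72 h was -7.67 (SE 1.75, adjusted p = 0.0328, edgeR). Minus-strand site 27840123 (chr6:27840074-27840143) had 19.8 and 62.5 RPM at 0 h and 1.01 and 1.15 RPM at 72 h, a log2 fold change of -5.04 (SE 1.22, adjusted p = 0.0424, edgeR). At 72 h 27114884 held 2 and 15 tags and 27840123 held 1 and 5, so the sizes of these falls are imprecise. Plus-strand site 27782799 (chr6:27782749-27782834) had 3.96 and 22 RPM at 0 h and no tag in any library of 48 h and 72 h. By the mean of both libraries it was at least 6.96-fold lower at 72 h, taking 3 tags per library as the limit (adjusted p = 0.0358, edgeR). Replicate 2 carries this bound. In replicate 1 the site had 5 tags at 0 h (3.96 RPM), and 3 tags at 72 h are worth 3.04 RPM there. Placing it at that limit left the median of the 46 sites at -2.0.

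Other strong sites were lower at 72 h in both replicates and passed the test with the block alone. The minus-strand site at 26032326 (chr6:26032110-26032385) had 199, 85.5, 68.4, 50.5, 32.4, 7.64 and 7.10 RPM in replicate 1 and 1006, 866, 585, 878, 303, 53.2 and 3.22 RPM in replicate 2. Both 72 h libraries were its lowest of their replicate. At 27835365 on the minus strand (chr6:27835159-27835395) the levels were 35.6, 4.17, 22.8, 7.97, 0, 0 and 0 RPM in replicate 1 and 354, 316, 262, 263, 167, 8.07 and 1.15 RPM in replicate 2. At 72 h 26032326 held 7 and 14 tags and 27835365 held 0 and 5, so the sizes of their falls are imprecise. Their log2 fold changes at 72 h were -6.94 (SE 1.78, adjusted p = 0.0541) and -7.59 (SE 2.31, adjusted p = 0.103) with edgeR. With the block they were -7.09 and -8.61 (adjusted p = 8.05e-06 and 8.14e-07, edgeR). Likewise 27860962 on the minus strand (chr6:27860837-27861089) had 273 and 908 RPM at 0 h and 129 and 69.5 RPM at 72 h. Its change of -2.53 had an adjusted p of 0.183 with edgeR, and with the block the change was -2.05 (adjusted p = 0.0230).

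The highest cluster site had a different course. The minus-strand site at 26056697 had 1481, 1161, 941, 611, 447, 2450.3 and 1349 RPM in replicate 1 and 1300.3, 1186, 1412, 1351, 1220.4, 1323 and 914 RPM in replicate 2. Its groups at 0 h and 72 h overlap, and its log2 fold change at 72 h was -0.25 (adjusted p = 0.906, edgeR). It held 10.0% of the summed level in replicate 2 at 0 h and 57.1% in replicate 1 at 48 h. Of the other strong sites, 26124399 on the plus strand (chr6:26124293-26124682) had 101 and 178 RPM at 0 h and 158 and 188 RPM at 72 h, and the minus-strand site at 26285760 (chr6:26285714-26285877) had 92.6 and 211 RPM and then 178 and 142 RPM. Neither passed the test with or without the block. The plus-strand sites at 26104161 and 26156557 departed in the 6 h and 18 h libraries of replicate 2, with 2128 and 1159.5 RPM and with 2191 and 1879 RPM, above every other library. At 0 h and 72 h 26104161 had 288 and 51.7 RPM in replicate 1 and 789.8 and 82.2 RPM in replicate 2.

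A contrast that does not use the 0 h libraries gave the same direction. In late times (48 h and 72 h) against early times (3 h and 6 h), 11 of the 32 cluster sites tested had fallen and 0 had risen, against 3.06% and 3.26% of the 11193 clusters tested. The median log2 fold change was -1.30, against -0.03 for all. All 4 late libraries lay below all 4 early ones for 5 of 32 sites (5.54% of all). The largest falls among those called were at 27835365 (-5.75, SE 1.14, adjusted p = 0.0109), 26032326 (-4.52, SE 0.96, adjusted p = 0.0147), 27114884 (-4.48, SE 1.04, adjusted p = 0.0216) and 26104161 (-3.33, SE 0.78, adjusted p = 0.0229) with edgeR. The early group holds the 6 h library of replicate 2 that stood apart. At 26104161 it had 2128 RPM, against 158, 125 and 623 RPM in the other early libraries, so that fall leans on it. At 27114884 it was instead low, with 88.7 RPM against 931 RPM at 3 h in replicate 2. The block gave 13 sites lower (4.14% of all). The count was 3 of 30 tested without replicate 2 of 3 h (1.71% of all), 6 of 37 without replicate 2 of 72 h (1.25%), and 19 of 39 without replicate 1 of 3 h or of 6 h (3.57% and 3.18%).

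BicR had a higher summed cluster level than LNCaP. The 46 positions summed to 14025 RPM in LNCaP and 21251 RPM in BicR at 0 h. With ethanol they summed to 12044 and 17380 RPM at 6 h and to 7819 and 16737 RPM at 24 h, so that BicR stood 1.44-fold and 2.14-fold above LNCaP. With DHT the sums were 11683 RPM in LNCaP and 20969 RPM in BicR at 6 h, and 7979 and 8317 RPM at 24 h. With bicalutamide they were 11596 and 16875 RPM at 6 h and 7615 and 12588 RPM at 24 h. With both agents they were 12017 and 17112 RPM at 6 h and 7824 and 8352 RPM at 24 h. BicR was above LNCaP in all 9 pairs of libraries, by little at 24 h with DHT, alone or with bicalutamide.

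**Figure D3:**
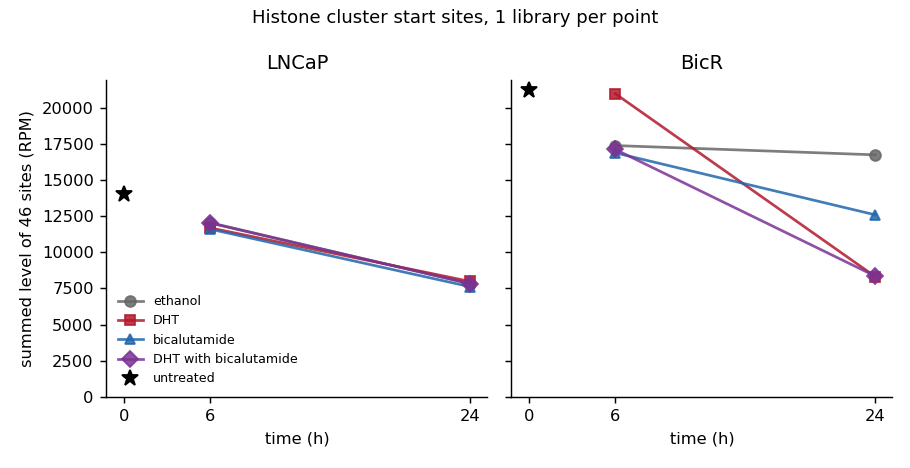
Summed level of the 46 cluster positions (RPM, linear axis from 0) at 0, 6 and 24 h in LNCaP (left) and BicR (right), with 1 library per point and lines joining the libraries of a treatment. The 4 LNCaP lines run close together (ethanol from 12044 to 7819 RPM), while in BicR ethanol ends at 16737 RPM and DHT at 8317 RPM.

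With ethanol, 26 of 46 sites were higher in BicR than in LNCaP and 0 were lower, against 5.12% and 5.88% of all 13294 positions. The test was edgeR's, with the 6 h and 24 h libraries of a line standing in for replicates. The median log2 fold change was 0.87, against -0.01 for all positions. At 27833095 on the plus strand the levels were 95.1 and 59.1 RPM in LNCaP and 267 and 275 RPM in BicR at 6 h and 24 h, a log2 fold change of 1.98 (SE 0.32, adjusted p = 0.00336). Site 27782799 had 27.0 and 11.1 RPM in LNCaP against 56.4 and 42.2 RPM in BicR (1.64, SE 0.37, adjusted p = 0.0161). Minus-strand site 26033843 had 73.3 and 37.5 RPM against 155 and 138 RPM (1.61, SE 0.29, adjusted p = 0.00597), and the plus-strand site at 27775950 had 420.1 and 250.5 RPM against 836 and 925 RPM (1.56, SE 0.26, adjusted p = 0.00427). At each of these 4 both BicR libraries lay above both LNCaP libraries. At 26056697 the values were 1729 and 1134 RPM in LNCaP and 2101 and 2212 RPM in BicR (0.71, SE 0.18, adjusted p = 0.0265). Across all matched conditions 21 sites were higher in BicR in 9 of 9 (10.1% of all positions), and 0 were lower in 9 of 9 (11.4% of all). The count of 26 rested on the ethanol libraries. It was 2 without the LNCaP library of 6 h (0.918% of all positions higher), 9 without that of 24 h (1.28%), 9 without the BicR library of 24 h (3.82%), and 1 without the term for time (1.2%).

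In LNCaP the summed level was lower at 24 h than at 6 h by nearly the same factor with each treatment. The sum at 24 h was 64.9% of that at 6 h with ethanol, 68.3% with DHT, 65.7% with bicalutamide and 65.1% with both, a log2 ratio of -0.60 ± 0.03 (SD over the 4 treatments). The difference was thus also present with vehicle alone. Of 46 sites 12 had fallen and 0 had risen, against 0.873% and 0.0978% of all positions, with a median of -0.73 against -0.01. Without the 6 nearly empty positions described below, 11 of 40 sites had fallen (median -0.69). Lower values in 4 of 4 treatments were seen at 34 of 46 sites (13.5% of all), and higher values in 4 of 4 at 1 (12.5%). The 34 include the nearly empty 26250862, with 1 and 2 tags at 6 h with ethanol and DHT. Site 27835365 had 197, 176, 182 and 148 RPM at 6 h and 103, 57.5, 76.4 and 61.6 RPM at 24 h, in the order ethanol, DHT, bicalutamide, both. All 24 h values lay below all 6 h values, and the log2 fold change was -1.28 (SE 0.18, adjusted p = 0.0200, edgeR). The plus-strand sites at 27782799 and 26020680 fell by 1.54 (SE 0.29, adjusted p = 0.0353) and 1.13 (SE 0.19, adjusted p = 0.0299) on the log2 scale, and the minus-strand site at 26033843 fell by 1.19 (SE 0.21, adjusted p = 0.0299, edgeR). Without any 1 of the 6 LNCaP libraries of DHT, bicalutamide or both, 0 sites were called, and without the 6 h library of BicR with both agents, 27 were (1.81% of all positions lower).

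In BicR the ratio of 24 h to 6 h differed between the treatments, each with 1 library per time and no test. With ethanol the sum at 24 h was 96.3% of that at 6 h, with bicalutamide 74.6%, with both agents 48.8% and with DHT 39.7%. Of 46 sites 37 had fallen and 1 had risen in the fit over the 4 treatments, against 11.2% and 10.5% of all positions, with a median of -0.96 against -0.03. Some of these falls are of the 6 nearly empty positions described below, whose tags lie almost all in 6 h libraries. Without those positions 32 of 40 sites had fallen and 1 had risen (median -0.83). Values lower in 4 of 4 treatments were seen at 21 sites (6.95% of all) and higher in 4 of 4 at 4 (30.4%). The counts at 24 h at least 1.5-fold below 6 h were 4 of 46 with ethanol (1.53% of all positions), 17 with bicalutamide (4%), 36 with both (13.9%) and 35 with DHT (9.21%). They include nearly empty positions. With ethanol, 26045611 and 26189337 each went from 1 tag to 0. With both agents all 6 such positions went to 0. With DHT 26045611, 26250862 and 26271640 went to 0 from 1, 3 and 5 tags. At 27835365 the values were 429, 475, 391 and 303 RPM at 6 h and 251, 118, 105 and 73.8 RPM at 24 h, in the order ethanol, DHT, bicalutamide, both (-1.82, SE 0.18, adjusted p = 0.000673, edgeR). At 27114884 they were 1205, 1466, 1252 and 1021 RPM and then 888, 332, 481 and 215 RPM (-1.70, SE 0.22, adjusted p = 0.00144, edgeR). At both sites every 24 h value lay below every 6 h value, and the ethanol value was the highest of 24 h. At 26032326 they were 1459, 1659.7, 1384 and 1388 RPM and then 1509, 571, 1178 and 686 RPM, so the ethanol value was not lower at 24 h there (-0.83, SE 0.18, adjusted p = 0.00849, edgeR). The site that rose was 27343025 on the minus strand, with 9.49, 5.52, 7.30 and 6.21 RPM at 6 h and 14.1, 13.7, 15.8 and 15.2 RPM at 24 h (0.89, SE 0.16, adjusted p = 0.00377, edgeR). The difference between the lines in this change was tested as an interaction, and edgeR called 0 of 46 sites and 0 of all positions (0%). At an unadjusted p under 0.05 there were 4 sites and 1399 of all 13294 positions. The median difference, BicR minus LNCaP, was -0.21. It was 0.01 without the 6 h library of BicR with both agents, which stood apart. Then 0 sites and 1022 of all positions had an unadjusted p under 0.05. Leaving out the BicR ethanol library of 6 h, or that of 24 h, gave 3 sites called lower (0.248% of all positions in both fits).

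**Figure D4:**
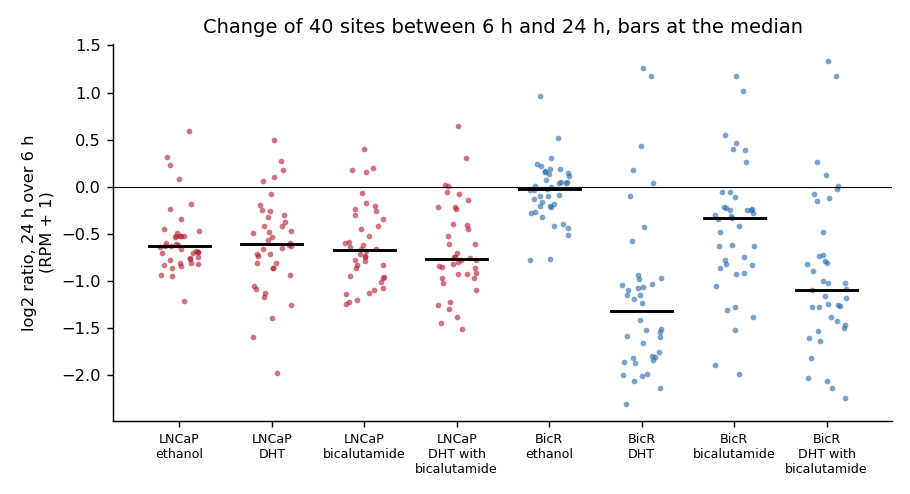
Log2 ratio of the level at 24 h over that at 6 h (RPM plus 1) for 40 cluster positions, by line and treatment, with 1 point per position and a bar at the median. LNCaP medians lie between -0.76 and -0.61, and BicR medians at -0.03 with ethanol, -0.33 with bicalutamide, -1.09 with both and -1.32 with DHT.

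DHT against ethanol gave no called cluster site in either line. In LNCaP 0 of 46 sites were called (0.128% of all positions, in either direction) with a median of 0.02. At an unadjusted p under 0.05 there were 1 site and 736 of all 13294 positions. In BicR 0 of 46 were called (3.38% of all) with a median of -0.44. There 15 sites and 2061 of all positions had an unadjusted p under 0.05. The BicR values differed by time. At 6 h 3 sites were at least 1.5-fold lower with DHT than with ethanol (5.72% of all positions) and 5 at least 1.5-fold higher (9.14%). At 24 h 33 were at least 1.5-fold lower (8.95%) and 0 higher (5.45%), each from 1 library against 1, with no test. Nearly empty positions described below, with at most 5 tags in these libraries, enter the counts. At 6 h 26189337 is among the lower and 26250862 and 26271640 are among the higher. At 24 h 27107060 is among the lower. The fit joins both times, and it called 21 sites lower (1.09% of all positions) when the ethanol library of 6 h was left out, which leaves ethanol with 1 library that is taken to vary like the other groups. The plus-strand site at 27100821 had 785 RPM with ethanol and 941 RPM with DHT at 6 h, and 684 and 266 RPM at 24 h. At 27860962 the values were 1010.3 and 1211 RPM at 6 h and 946 and 456 RPM at 24 h. DHT was thus above ethanol at 6 h and below it at 24 h at both. An interaction test of line and DHT called 0 of 46 sites and 0 of all positions (0%, edgeR). At an unadjusted p under 0.05 there were 4 sites and 754 of all positions.

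Bicalutamide alone called 0 of 46 sites in LNCaP and in BicR (0.00752% and 0.196% of all positions, edgeR), with medians of 0.00 and -0.21. At an unadjusted p under 0.05 there were 3 and 2 sites, against 257 and 804 of all 13294 positions. At 24 h in BicR 13 sites were at least 1.5-fold lower with bicalutamide than with ethanol (4.14% of all) and 31 were with both agents (8.42%), each from 1 library. Both counts include the nearly empty position 27107060, which had 1 tag with ethanol and 0 with the agents. At 27100821 the 24 h level was 684 RPM with ethanol, 458 RPM with bicalutamide, 266 RPM with DHT and 261 RPM with both. The level with both agents lay next to that with DHT alone. Against DHT alone, DHT with bicalutamide called 0 sites in LNCaP (0% of all, edgeR). There 2 sites and 244 of all positions had an unadjusted p under 0.05. In BicR it called 1 site (0.143% of all higher). That site, 26250862 on the minus strand, is one of the 6 described next. DESeq2 called 0 sites for each of these comparisons of agents, for DHT against ethanol in both lines and for both interactions.

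In the table of the lines 6 positions were almost empty outside 3 libraries. These were 26045611, 26251841 and 27107060 on the plus strand and 26189337, 26250862 and 26271640 on the minus strand, and at least 97.3% of the tags of each came from the BicR and LNCaP libraries of DHT with bicalutamide at 6 h and the LNCaP library of bicalutamide at 6 h. At 26250862 these held 507, 16 and 73 tags (102, 2.51 and 8.09 RPM), and the highest level in the other 15 libraries was 0.436 RPM. None of the 6 lies in a cluster of the R1881 table, and 202 positions of the whole table share the pattern. At 26250862 the fitted log2 change from 6 h to 24 h was -7.38 in LNCaP and -10.68 in BicR, the largest of the cluster in each line. What these tags are was not tested. Over the other 40 sites 32 had fallen and 1 had risen in BicR between 6 h and 24 h (median -0.83), 11 had fallen in LNCaP (median -0.69) and 26 were higher in BicR than in LNCaP (median 0.91). Without the 6 h library of BicR with both agents, 29 of 46 had fallen in BicR (5.99% of all positions) and 27 were higher in BicR than in LNCaP (7.3%).

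Most sites were lower at the later time in both experiments, which share no library. Of the 46 positions 39 lie inside one of the R1881 clusters. Among these, 31 were below 0 in both the R1881 change at 72 h and the LNCaP change from 6 h to 24 h, and 4 were above 0 in both. Across the 39 sites the changes correlated with Pearson r = 0.78 and Spearman rho = 0.77 for LNCaP, and 0.75 and 0.81 for BicR. These are descriptions over sites that share libraries. The counts and correlations given here were not made over all sites, so whether they are particular to the cluster was not tested. In 24 sites the fitted change was at least 1.5-fold lower in the R1881 series (with the block), in LNCaP and in BicR, among them 27835365, 27114884, 27782799, 26020680, 26032326 and 27833095. In 8 sites, singled out after their values were seen, it was not 1.5-fold lower in any. Those were 26224405, 26124399 and 27356770 on the plus strand, and 26285761, 27806152, 27440883, 27113814 and 27343025 on the minus strand, by their positions in the table of the lines. The BicR changes used here were fitted over the 4 treatments together. In BicR with ethanol alone, 22 of the 40 sites that were not nearly empty were lower at 24 h than at 6 h. Their median log2 ratio was -0.03 (RPM plus 1). At 26224405 the LNCaP levels were 24.2, 24.8, 26.1 and 24.5 RPM at 6 h and 30.3, 21.5, 29.6 and 24.8 RPM at 24 h, and the R1881 levels were 19 and 14.9 RPM at 0 h and 33.5 and 23.9 RPM at 72 h. At 26124399 the LNCaP levels were 353, 301, 325 and 336 RPM and then 279.6, 323, 288 and 318 RPM.

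**Figure D5:**
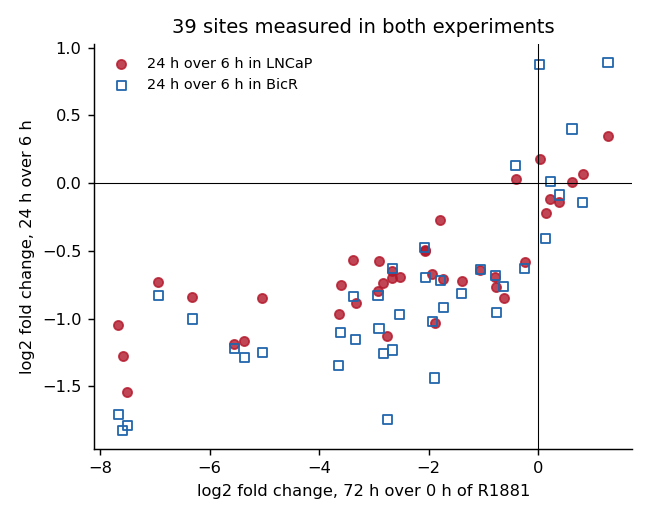
Log2 fold change at 24 h over 6 h in LNCaP (filled) and BicR (open) against that at 72 h over 0 h of R1881 for the 39 sites measured in both experiments. Points lie mostly at the lower left, with 31 sites below 0 on both axes for each line and 4 above 0 on both.

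The sides of a head-to-head pair often had unequal changes in the R1881 table. Over the R1881 course 7 of 10 pairs had the same sign at 72 h, and in 3 of 10 the sides were within 1 log2 unit (7 and 1 of 10 with the block). The minus-strand site at 27114633 had 275 and 359 RPM at 0 h and 156 and 78.5 RPM at 72 h (log2 fold change -1.40, SE 0.46), whereas its partner 27114884, 251 bp away, had the change of -7.67 given above. Plus-strand site 27806346 had 71.2 and 367 RPM at 0 h and 51.7 and 56.6 RPM at 72 h (-1.94), and its partner 27806152, 194 bp away, had 64.9 and 69.4 RPM and then 97.4 and 55.0 RPM (0.22). Minus-strand site 26124153 had 126 and 379.6 RPM and then 54.8 and 59.2 RPM (-2.07), with 26124399 on the other side at 0.38. Minus-strand site 26124078 (-2.16) was also paired with 26124399, so this place enters the pair counts more than once. In the lines the sides of all 9 pairs were within 1 log2 unit in LNCaP, and 8 of 9 were in BicR, where 27806152 was at 0.01 and 27806346 at -1.02. The differences within pairs were not tested.

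Neighbouring sequence served as a comparison. Of 9 tested sites in the stretch between the blocks, 0 were called at 72 h of R1881, with a median of 0.24, and 0 of 9 were called between 6 h and 24 h in either line. Their summed level stayed between 90.7 and 180 RPM over the R1881 libraries. Histone genes also lie on chromosome 1, and in an interval there 1 of 5 tested sites had fallen at 72 h of R1881 (median -2.47) and 3 of 5 had with the block (median -2.44), while 0 of 4 had fallen between 6 h and 24 h in LNCaP (median -0.61) and 4 of 4 had in BicR (median -1.12). That interval summed to 1456 and 2994 RPM at 0 h and to 965 and 1073 RPM at 72 h. In the R1881 series kallikrein sums were higher at 72 h than at 0 h while the cluster was lower, whereas with ethanol in LNCaP both were lower at 24 h than at 6 h. The kallikrein sums there were 486 and 398 RPM at 6 h and 24 h with ethanol and 1862 and 2555 RPM with DHT. Their part in the result was not tested.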

How the data were processed

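CAGE tags were sequenced on HeliScope and mapped to hg19, per the labels and the submitters' processing notes. The aligner, the clustering of tags and the filters are not given in the sources used here. The authors deposited raw tag counts per site and, beside them, RPM values, which are the counts times 1 factor per library. The cluster rows and comparison lists were chosen with earlier results of these data known. Counts were tested across each whole table with edgeR 4.0.16 in R 4.3.3 (TMM, quasi-likelihood test, Benjamini-Hochberg adjustment, filterByExpr with a minimum count of 10). R1881 times were fitted as groups. The lines were fitted with line by treatment and a term per line for 24 h against 6 h, so that the times stand in for replicates. DESeq2 1.42.0, RLE size factors, other filters, the replicate as a block and leaving out each library were alternatives, and the block without 2 libraries was added after seeing the data. The tests were tested on simulated data. Depth was 128463 to 3837493 tags per library in the R1881 table and 4139807 to 7753336 in the other.

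Same-numbered R1881 libraries deviated together from the time means in 21 of 21 pairs of times (correlation 0.146 to 0.578, 13837 clusters). Every replicate 1 library was shallower than every replicate 2 library. Depth and paired cultures therefore cannot be told apart here. Sites named were drawn from the 10 with the highest mean level in each table and from up to 4 called sites each way per comparison with the largest change. The 6 nearly empty positions were set aside. Not all of these sites are described. Minus-strand site 26199520, rank 10 in the lines (479 RPM), is left out above. So are the fitted BicR changes from 6 h to 24 h at 27782799 (-1.79) and 26020680 (-1.75). Other named sites were chosen after their values were seen.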

Additional observations from a re-analysis of the deposited data

How the results depend on the processing

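The counts of called cluster sites in the R1881 series rested on the design. With the replicate block the counts were 4, 11, 21 and 27 lower for 6, 18, 48 and 72 h. DESeq2 called 1, 2 and 7 lower for 18, 48 and 72 h (0.894%, 0.694% and 1.26% of all clusters). In the lines it called 26 lower for 24 h against 6 h in LNCaP (1.24% of all positions). It called 0 for DHT with bicalutamide against DHT in BicR. RLE size factors gave 5 lower at 72 h (1.13% of all clusters) and 1 lower for DHT in BicR (1.2% of all positions). With no filter 1 site was called at 48 h, 5 at 72 h and 19 for late against early times. The share of all clusters called without the filter is not given here, so these counts do not set the cluster apart. Without replicate 2 of 6 h and of 18 h there were 8 at 72 h, and with the block as well, chosen after seeing the data, 1, 2, 29 and 29 at 12, 18, 48 and 72 h. Without a time term there were 0 for DHT with bicalutamide against DHT in BicR and 1 for BicR against LNCaP. Without the 6 h library of BicR with both agents there were 27 for 24 h against 6 h in LNCaP, 1 for DHT in BicR and 0 for DHT with bicalutamide against DHT in BicR, where 26250862 turned to -1.51 (7.98 without the 24 h library). The causes were not tested. Leaving out 1 library gave 0 to 2 sites at 72 h, 3 to 19 for late against early times, 0 to 10 for 24 h against 6 h in LNCaP (apart from the 27 above), 30 to 40 in BicR, 0 to 3 for their difference, 2 to 31 for BicR against LNCaP, 0 to 21 for DHT in BicR and 0 to 6 for DHT with bicalutamide against DHT in BicR. The share of all sites called also moved between these fits, where given above, so the ranges alone do not set the cluster apart. A lone library is taken to vary like the other groups. The summed log2 ratio to 0 h then ranged from -1.33 to 0.53 (3 h), -1.59 to 0.41 (6 h), -1.91 to 0.20 (12 h), -2.43 to -0.15 (18 h), -1.66 to -0.36 (48 h) and -2.14 to -0.83 (72 h). It turned above 0 without replicate 2 of 0 h (0.53, 0.41 and 0.20 at 3, 6 and 12 h) or without replicate 1 of 3, 6 or 12 h (0.33, 0.26 and 0.08). The block left the calls at 3 h and 12 h at 0 and gave 13 rather than 11 for late against early times. Depth limits replicate 1 of the R1881 series most, where 3 tags reach 19.4 RPM.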
